A study of Mus musculus with 2 samples.

Results

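The costimulatory and checkpoint ligands described here are 9 genes, namely Cd80, Cd86, Cd274, Pdcd1lg2, Icosl, Cd276 and Vtcn1 of the B7 family, Cd83, and Ly75. They were chosen by gene name, and every non-control probe was taken whose gene name or transcript record belongs to 1 of them. This gave 13 of the 41174 probes on the array, and 9 of the 19505 genes that these probes name. RNA of C57BL/6 mouse fetal thymic stromal cells was measured after 72 h in reaggregation thymus organ culture (RTOC), in which the dispersed cells are placed as a small drop on a filter membrane, and after 72 h in 2D culture on a plastic dish. All cells came from thymus lobes kept in organ culture with 1.35 mM deoxyguanosine, an agent that depletes thymocytes, and then dispersed with an enzyme. On the E14.5 array the lobes were from E14.5 fetuses and had 8 days of organ culture, and on the E15.5 array they were from E15.5 fetuses and had 9 days. RTOC RNA was labelled with Cy5 and 2D RNA with Cy3, and both were hybridized to the same array, without a dye swap. The 2 arrays served as replicates of 1 comparison. Stage, days of organ culture and array move together and cannot be told apart, and the same holds for culture and dye. The number of fetuses pooled was not given in the sources used here, and no sorting of the cells is described.

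The ligands of the B7 family sit on antigen-presenting cells and other cells and bind receptors on T cells. Cd80 and Cd86 bind the costimulatory receptor CD28 and the inhibitory receptor CTLA-4. Cd274 (PD-L1) and Pdcd1lg2 (PD-L2) bind the checkpoint receptor PD-1, and Icosl binds ICOS. In the thymus, Cd80 and Cd86 on medullary epithelial cells and dendritic cells take part in the development of regulatory T cells, PD-L1 is found on epithelium of the cortex, and thymic epithelial Cd83 is required for the development of CD4 T cells. Ly75 encodes DEC-205, an endocytic receptor known as a marker of dendritic cells and of cortical thymic epithelium.

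The ligands moved in both directions between the cultures. Cd83, Ly75, Cd274 and Cd86 were higher in RTOC on both arrays, Cd80 and Cd276 were lower on both arrays, Icosl did not pass the test, and Pdcd1lg2 and Vtcn1 were not well above background in any channel. By mean log2 ratio (RTOC over 2D culture), Cd83 rose by 4.97 ± 0.013 (SD, n = 2 arrays), or 31.4-fold, and Cd80 had a mean of -3.71 ± 0.40. The RTOC signal of Cd80 was well above background on the E14.5 array only, and with normexp background correction and loess its mean log2 ratio was -0.92. Of the 13 probes, 10 probes of 7 genes passed the filter on dim signals, and 9 of these 10 were called by limma at an adjusted p under 0.05, 6 higher and 3 lower in RTOC. Cd80 probe A_52_P244005 passed only through its 2D signal, so it could be called only as lower. With normexp and loess 5 of the 10 were called, and the calls of both Cd86 probes (adjusted p = 0.0773 and 0.0949, limma), of Cd276 (adjusted p = 0.101, limma) and of Cd80 probe A_52_P244005 were lost. With no filter on dim signals none was called at an adjusted p under 0.05 (9 at an unadjusted p under 0.05, limma). Over all 23681 tested probes, 28.9% were called, 15.3% as higher and 13.6% as lower in RTOC. For the 4 genes with more than 1 probe both are given, and each probe has 1 spot on each array, none saturated.

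Cd80, Cd86, Icosl and Ly75 have a pair of probes each, and the pairs are the only repeat measurement of a gene within an array. The first 30 bases of each 60-base probe, as deposited, are shown so that the measured stretches can be told apart, and no base is in capitals.
Cd80 A_51_P418295: gattcctggaagtggcttttgctctttgga
Cd80 A_52_P244005: agaccggggcacatacagctgtgtcgttca
Cd86 A_52_P145861: ccaggagacatcactagaatccaaccaaca
Cd86 A_51_P174723: caagagtttccatctcctcaaacgtattgg
Icosl A_51_P520966: tagatggggcatagtgacttctagaaacct
Icosl A_52_P432647: tttcaacttgagtggtctgtatgtctattg
Ly75 A_51_P407351: cagttttcctaaaatatttttcttgaggcc
Ly75 A_52_P546030: attctgacatcctggccatctttggagagt
The longest stretch that both probes of a gene have in common was 5 bases for Cd80, 8 for Cd86, 5 for Icosl and 6 for Ly75, so the probes of a pair read different parts of the transcripts. Where on the transcript each probe lies was not analysed here.

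Cd80 and Cd86 encode the ligands of CD28 and CTLA-4 and lie on the same chromosome. In the mouse assembly GRCm38.p6 (RefSeq), Cd86 is annotated on chromosome 16 from 36568956 to 36666158 and Cd80 from 38457430 to 38495958, with 1791271 bp between them. With E14.5 stroma, probe A_51_P418295 of Cd80 had a normalized intensity of 845 in 2D culture and 78.6 in RTOC, and with E15.5 stroma of 285 and 17.9. Both 2D values lay above both RTOC values. The RTOC signal was well above background on the E14.5 array only, so the E15.5 ratio rests on an RTOC value below detection. The log2 ratio was -3.43 at E14.5 and -3.99 at E15.5 (mean -3.71 ± 0.40, SD, n = 2 arrays, SE 0.28, adjusted p = 0.00171, limma).

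Probe A_52_P244005 of Cd80 gave 373 (2D) and 72.9 (RTOC) with E14.5 stroma, and 115 and 32.2 with E15.5 stroma. Its 2D signal was well above background on both arrays and its RTOC signal on neither. Bounds on a fold were formed on a normexp, loess and Aquantile scale. There the mean of the detected culture is set against a floor in the other culture. The floor is, on each array, the higher of the lowest signal well above background and the probe's own signal. For this probe its own RTOC signal was the floor on both arrays. The 1.33-fold lower level in RTOC is thus the fold measured on that scale, and no lower bound is given. With quantile normalized signals the mean log2 ratio was -2.10 ± 0.36 (SD, n = 2 arrays), with an adjusted p of 0.00546 from limma. Since this probe passed the filter only through 2D culture, its direction adds nothing to that of A_51_P418295, whose RTOC signal was detected at E14.5 only. The call of A_52_P244005 is lost under normexp background correction with loess, where its mean log2 ratio was -0.41 (adjusted p = 0.193, limma), and that of A_51_P418295 was -0.92 (adjusted p = 0.0483, limma).

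Cd86 went the other way. Probe A_52_P145861 gave 149 (2D) and 526 (RTOC) with E14.5 stroma, and 184 and 417 with E15.5 stroma. Probe A_51_P174723 gave 124 and 685 at E14.5, and 182 and 366 at E15.5. Both probes were well above background in all 4 channels, and for each of them both RTOC values lay above both 2D values. The log2 ratios were 1.82 and 1.18 for A_52_P145861 (mean 1.5 ± 0.45, SD, n = 2 arrays, SE 0.28, adjusted p = 0.0166, limma), a 2.83-fold difference. They were 2.47 and 1.01 for A_51_P174723 (mean 1.74 ± 1.03, SE 0.40, adjusted p = 0.0279, limma). The E14.5 array gave the larger ratio with both probes. With normexp and loess the means were 0.56 and 0.72, and neither probe was called (adjusted p = 0.0773 and 0.0949, limma).

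The log2 ratio of Cd86 minus that of Cd80, each by its probe with the higher mean intensity, was 5.25 at E14.5. At E15.5 the RTOC signal of Cd80 was not well above background, and no difference is given. With normexp and loess the mean log2 ratios of these 2 probes over both arrays were 0.56 (Cd86) and -0.92 (Cd80), so the size of the difference depends on the processing. The difference was not tested.

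**Figure D1:**
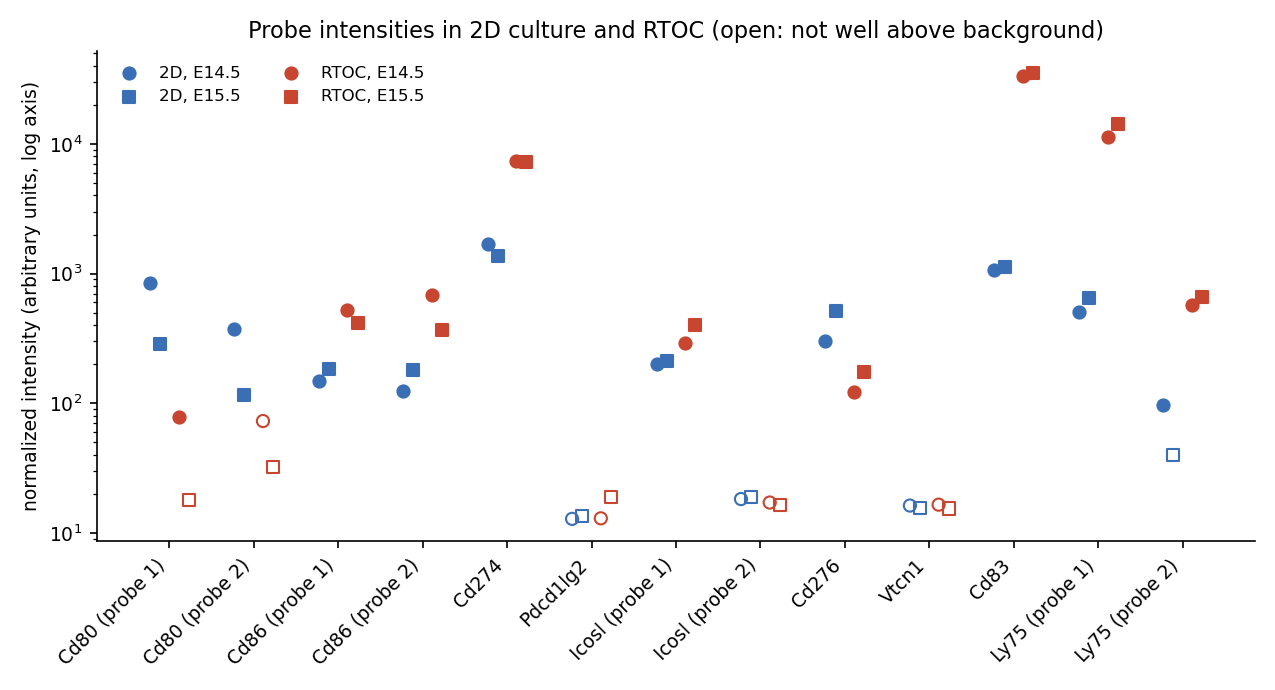
Normalized intensity (arbitrary units, log axis) of each of the 13 probes in 2D culture (blue) and RTOC (red), with circles for the E14.5 array and squares for the E15.5 array; open symbols are not well above background. Cd83 goes from 1069 and 1114 in 2D culture to 33316 and 35138 in RTOC, and Cd80 probe A_51_P418295 (probe 1) from 845 and 285 to 78.6 and 17.9; probe 1 is the probe of a gene with the higher mean intensity, and levels of different probes are not comparable.

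Cd274 encodes PD-L1 and Pdcd1lg2 encodes PD-L2, the ligands of PD-1. They are neighbours on chromosome 19, with Cd274 annotated from 29362107 to 29388095 and Pdcd1lg2 from 29410919 to 29472927, 22823 bp apart. Cd274 gave 1703 (2D) and 7406 (RTOC) with E14.5 stroma, and 1370 and 7193 with E15.5 stroma, well above background throughout. Both RTOC values lay above both 2D values. The log2 ratios were 2.12 and 2.39 (mean 2.26 ± 0.19, SD, n = 2 arrays, SE 0.26, adjusted p = 0.00382, limma), a 4.78-fold difference, and 649 tested probes were at least as high on both arrays, this probe not counted, as in the counts of this kind that follow. With normexp and loess the mean was 1.93 and the probe was still called (adjusted p = 0.0129, limma).

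Pdcd1lg2 was measured by 1 probe, which was not well above background in any of the 4 channels. Its normalized intensities were 12.8 (2D) and 12.96 (RTOC) at E14.5, and 13.4 and 18.9 at E15.5. No fold is given for it, and a level below what the array can detect cannot be told apart from absence.

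Icosl, the ligand of ICOS, is annotated on chromosome 10 from 78069368 to 78079525. Probe A_51_P520966 gave 201 (2D) and 291 (RTOC) at E14.5, and 213 and 402 at E15.5, all well above background. The RTOC values were the higher ones on each array. The log2 ratios were 0.54 and 0.91 (mean 0.73 ± 0.27, SD, n = 2 arrays, SE 0.26), which did not pass the test (adjusted p = 0.0910, limma). The 95% interval of the mean, not adjusted for the number of probes, ran from 0.070 to 1.38. Probe A_52_P432647 of Icosl was not well above background in any channel, with intensities between 16.5 and 18.8, and was not tested.

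Cd276 (B7-H3) and Vtcn1 (B7-H4) are B7 members whose T-cell receptors are less well defined and which are known from non-immune cells and tumours. Cd276, on chromosome 9 from 58524300 to 58555033, gave 299 (2D) and 123 (RTOC) at E14.5, and 513 and 174 at E15.5, all well above background. Both 2D values lay above both RTOC values. The log2 ratios were -1.28 and -1.56 (mean -1.42 ± 0.19, SD, n = 2 arrays, SE 0.26, adjusted p = 0.0144, limma), a 2.68-fold lower level in RTOC, and 1152 tested probes were at least as low on both arrays. With normexp and loess the mean was -0.42 and Cd276 was not called (adjusted p = 0.101, limma), nor was it called when the 4 channels were fitted without the array as a replicate block (adjusted p = 0.0579, limma).

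Vtcn1, on chromosome 3 from 100825459 to 100896922, had 1 probe that was not well above background in any channel. Its intensities lay between 15.4 and 16.5 in the 4 channels, and no fold is given.

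Cd83, a member of the immunoglobulin superfamily that stabilises MHC class II and CD86 at the cell surface, is annotated on chromosome 13 from 43785112 to 43803133. Its probe gave 1069 (2D) and 33316 (RTOC) with E14.5 stroma, and 1114 and 35138 with E15.5 stroma, well above background in all 4 channels. The values of a culture lay close together and the cultures far apart. The log2 ratios were 4.96 and 4.98 (mean 4.97 ± 0.013, SD, n = 2 arrays, SE 0.25, adjusted p = 0.00155, limma). Cd83 had the highest mean log2 ratio of the 10 tested probes of these ligands, and 17 of all tested probes were at least as high on both arrays. With normexp and loess its mean was 4.37.

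Ly75, on chromosome 2 from 60292103 to 60383273, was second among these ligands. Probe A_51_P407351 gave 503 (2D) and 11364 (RTOC) with E14.5 stroma, and 652 and 14189 with E15.5 stroma, all well above background. The log2 ratios were 4.50 and 4.44 (mean 4.47 ± 0.038, SD, n = 2 arrays, SE 0.25, adjusted p = 0.00155, limma), a 22.2-fold difference, and 36 tested probes were at least as high on both arrays. Probe A_52_P546030, designed on another transcript record of Ly75, gave 96.2 and 571 at E14.5, and 40.04 and 658 at E15.5, where the 2D signal was not well above background. Its log2 ratios were 2.57 and 4.04 (mean 3.30 ± 1.04, SE 0.40, adjusted p = 0.00442, limma), and with normexp and loess the mean was 1.02 and still called (adjusted p = 0.0292, limma). The log2 ratio of Ly75, by A_51_P407351, minus that of Cd83 was -0.46 at E14.5 and -0.54 at E15.5.

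**Figure D2:**
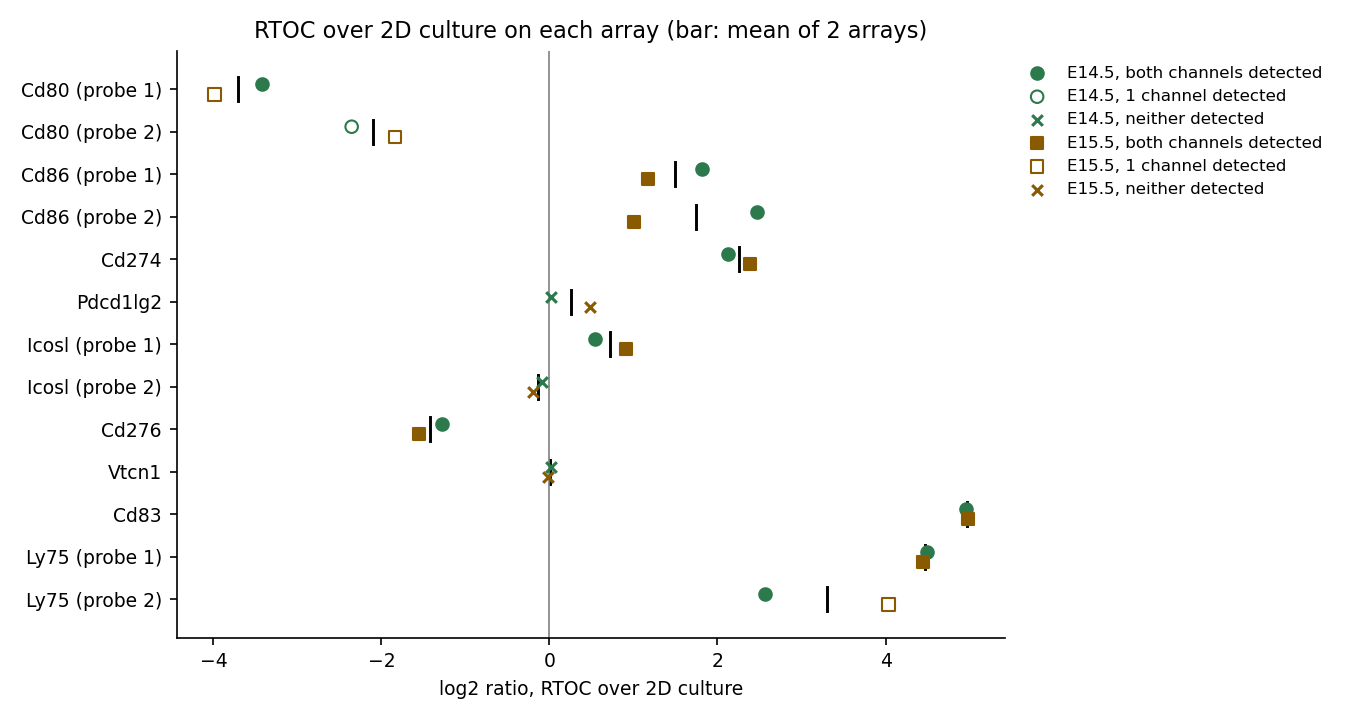
Log2 ratio of RTOC over 2D culture for each probe, with green circles for E14.5, brown squares for E15.5 and a bar at the mean; open symbols have 1 channel well above background and crosses have none. Cd80 lies at -3.71 and -2.10 and Cd276 at -1.42, left of 0, while Cd86 (1.5 and 1.74), Cd274 (2.26), Ly75 (4.47 and 3.30) and Cd83 (4.97) lie to the right.

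The 7 tested probes of these ligands that were well above background in all 4 channels had the same sign on both arrays. The other 3 (both of Cd80 and Ly75 probe A_52_P546030) were below detection in 1 culture on at least 1 array, which fixed their sign there. Pearson's r between the arrays was 0.827 across all tested probes. Probes are not independent replicates. The spread between the arrays differed among the ligands, from an SD of 0.013 for Cd83 to 1.04 for Ly75 probe A_52_P546030 and 1.03 for Cd86 probe A_51_P174723. The log2 ratio of Cd83 minus that of Cd86 was 3.14 at E14.5 and 3.80 at E15.5, and that of Icosl minus that of Cd276 was 1.82 and 2.47. That of Cd274 minus that of Cd80 was 5.55 at E14.5, and is not given for E15.5, where the RTOC signal of Cd80 was below detection. These differences are of quantile normalized signals and depend on the processing. With normexp and loess the mean log2 ratio was 1.93 for Cd274, 0.56 for Cd86, 0.26 for Icosl, -0.42 for Cd276 and -0.92 for Cd80. Ordered by the mean log2 ratio of the probe with the higher mean intensity, the genes ran Cd83, Ly75, Cd274, Cd86, Icosl, Cd276 and Cd80. Of neighbours in this order, the 95% intervals overlapped for Cd83 and Ly75 (4.35 to 5.59 and 3.85 to 5.10), for Cd274 and Cd86 (1.62 to 2.90 and 0.79 to 2.21) and for Cd86 and Icosl. They did not overlap for Ly75 and Cd274 or for Icosl and Cd276 (-2.06 to -0.78). By its second probe, A_52_P546030, which had a 2D signal below detection at E15.5, Ly75 overlapped Cd274 (2.31 to 4.30). Cd80 is not separated from Cd276 here, since its RTOC signal was below detection on 1 array or, with probe A_52_P244005, on both.

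**Figure D3:**
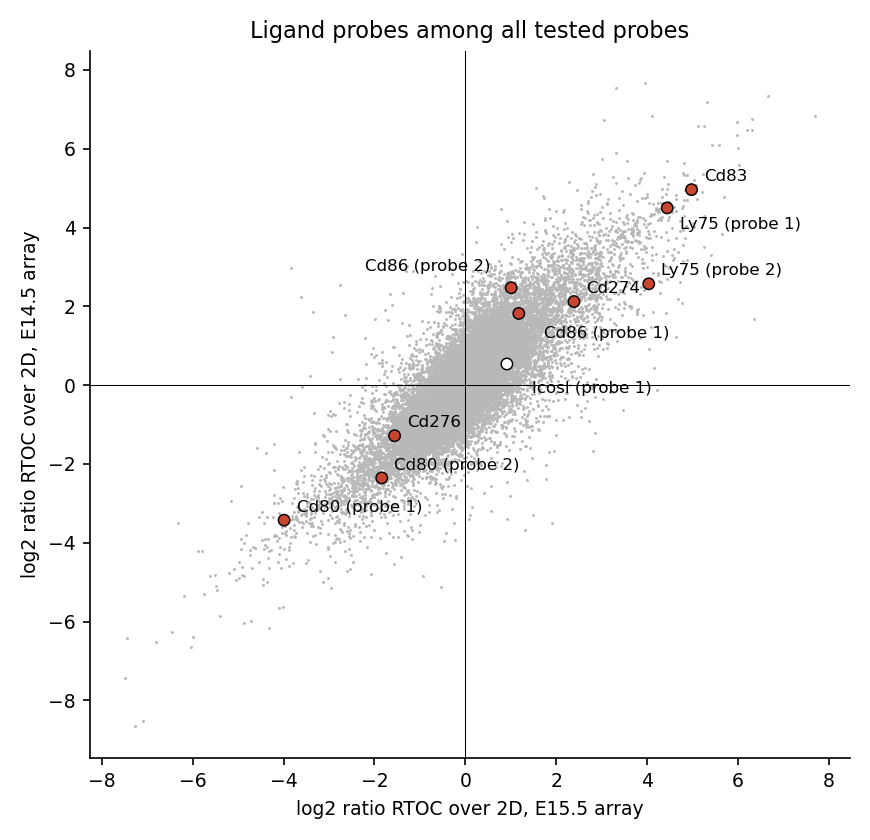
Log2 ratio of RTOC over 2D culture on the E15.5 array (horizontal) and the E14.5 array (vertical) for the 23681 tested probes (grey) and the 10 tested ligand probes (filled in red where the adjusted p from limma is under 0.05). Cd83 and Ly75 sit near the upper right end of the cloud and Cd80 toward the lower left end, and Icosl is the open point, with an adjusted p of 0.0910.

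The genes whose pair of ratios lay nearest to those of Cd83 and of Cd276, the highest and the lowest of the ligands detected in all 4 channels, were looked up among 12070 genes detected in all 4 channels, by the Euclidean distance over the 2 log2 ratios. Nearest to Cd83 were Enpep (distance 0.14), Grp (0.15) and Clic5 (0.23). Nearest to Cd276 were Tmem63b (0.021), Ulbp1 (0.024) and Slc35d2 (0.043). With 2 arrays this likeness is a description.

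Promoter windows were available in the RefSeq table of GRCm38.p6 for 7 of the 9 genes, and not for Cd83 and Cd86. Each window is the 250 bases before the start used in that table. For 5 genes this is the 5′ end of the annotated gene, and for Cd274 and Cd80 it lies inside the annotated gene, as do their windows. The study concerns the transcription factor Foxn1, whose invariant core motif ACGC was searched on both strands. It was present in 3 of the 7 windows, those of Ly75, Cd274 and Cd276, each time once and on the reverse strand (read as GCGT), and 49.8% of all 32851 promoter windows of this length hold it. Ly75 and Cd276, which changed in opposite directions, are printed because they carry the core at nearly the same place, from base -23 and from base -21 before the start. Capitals mark the core.
Ly75, chr2:60383274-60383523, minus strand: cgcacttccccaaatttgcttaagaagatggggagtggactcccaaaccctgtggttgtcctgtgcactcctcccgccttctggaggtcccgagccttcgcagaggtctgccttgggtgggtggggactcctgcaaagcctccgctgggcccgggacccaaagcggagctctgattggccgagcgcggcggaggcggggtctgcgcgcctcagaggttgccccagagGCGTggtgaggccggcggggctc
Cd276, chr9:58555034-58555283, minus strand: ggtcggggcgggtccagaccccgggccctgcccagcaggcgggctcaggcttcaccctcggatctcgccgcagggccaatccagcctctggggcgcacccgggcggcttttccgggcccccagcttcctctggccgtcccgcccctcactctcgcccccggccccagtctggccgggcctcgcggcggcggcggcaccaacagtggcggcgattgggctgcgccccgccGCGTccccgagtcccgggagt
The core of Cd274 began at base -201. The windows of Cd80, Icosl, Pdcd1lg2 and Vtcn1 hold no ACGC. The interferon-gamma activated site TTCNNNGAA was found in none of the 7 windows, against 7.02% of all windows, and the NF-kB consensus was found in that of Pdcd1lg2, against 3.90%. Both motifs were also searched on either strand. A match or its lack says only which letters are in the window. Foxn1 itself gave 442 (2D) and 2833 (RTOC) at E14.5, and 552 and 3424 at E15.5 (mean log2 ratio 2.66 ± 0.033, SD, n = 2 arrays, adjusted p = 0.00253, limma).

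The receptors and relatives of these ligands were read from lists of genes, with the probe of highest mean intensity for each gene. Over all 13492 genes tested in this way, 28.2% were called, 2089 genes as higher and 1721 (12.8%) as lower in RTOC, and the median log2 ratio was 0.0022. A gene that was not well above background in 1 culture on either array passed the filter only through the culture where it was high, so its direction was fixed, and such calls are counted below. Of 12 receptors of these and related ligands, 11 were on the array. Of these, 9 were not well above background in any channel, among them Cd28, Ctla4, Icos, Pdcd1 and Btla. Rgmb was tested and not called (mean log2 ratio -0.044, adjusted p = 0.910, limma). Havcr2 (TIM-3), an inhibitory receptor also found on myeloid cells, was lower in RTOC (mean log2 ratio -0.92 ± 0.23, SD, n = 2 arrays, adjusted p = 0.0480, limma), a call that is lost with normexp and loess (-0.34, adjusted p = 0.134, limma). Of the other B7 and butyrophilin family, 7 of 11 genes were on the array and 3 were tested. Btnl9, a butyrophilin-like gene, was at least 1.29-fold higher in RTOC, being not well above background in 2D culture on either array, and is not called with normexp and loess (adjusted p = 0.110, limma). Vsir (VISTA) had a mean log2 ratio of 0.71 (adjusted p = 0.0890, limma) and was not called.

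Of 20 other costimulatory and coinhibitory ligands, 15 were tested, and 4 were higher and 4 lower in RTOC, with a median log2 ratio of -0.19. Of these 8 calls, 3 were of genes below detection in 1 culture (Tnfsf9, Tnfsf14 and Tnfrsf14), and the same 3 were not called with normexp and loess. Icam2, an adhesion ligand of the integrin LFA-1, was the highest among those detected in all channels (3.42 ± 0.25, SD, n = 2 arrays, adjusted p = 0.00174, limma). Pvr (CD155), a ligand of TIGIT and CD226, was the lowest by its brightest probe of those detected in all channels (-2.16 ± 0.49, adjusted p = 0.00602, limma). By the median over the probes of a gene, Nectin2 was lower (-2.25 over 2 probes, against -2.07 over 5 for Pvr). Like the B7 ligands, this group thus held members that changed in each direction. Cd40, through which T cells activate antigen-presenting cells, had log2 ratios of 1.66 and 0.32 and was not called (adjusted p = 0.103, limma).

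Ly75 belongs to the mannose receptor family, whose 3 other genes were all tested. Pla2r1, a phospholipase A2 receptor, was called lower in RTOC (-1.84 ± 0.81, SD, n = 2 arrays, adjusted p = 0.0164, limma), but not with normexp and loess (-0.40, adjusted p = 0.111, limma). Its RTOC signal was well above background on 1 array only, so the filter fixed its direction on the other. Mrc1 (0.59) and Mrc2 (-0.24) were not called. Of 8 regulators of the ligand proteins at the cell surface, Marchf1, an E3 ligase that removes CD86 and MHC class II from the surface, was higher (1.04 ± 0.14, adjusted p = 0.0332, limma). Cmtm4, a protein that protects PD-L1 from degradation, was lower (-1.57 ± 0.010, adjusted p = 0.00976, limma), and the other 6 were not called, Cmtm6 among them (0.044).

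Cd274 is a known target of interferon-gamma, and Cd83 and Cd86 are known targets of NF-kB. Of 17 tested genes of interferon-gamma signalling and response, 8 were higher and none was lower in RTOC, with a median log2 ratio of 1.03, or 0.62 with normexp and loess. Of the 8, Cxcl9 was below detection in 2D culture, and 2, Cxcl9 and Cxcl10, were not called with normexp and loess. The highest was Psmb9, an immunoproteasome subunit (3.92 ± 0.27, SD, n = 2 arrays, adjusted p = 0.00155, limma). Of 12 tested NF-kB subunits and inhibitors, 2 were higher and 2 lower, with a median of 0.19. Map3k14 (NIK), the kinase of the non-canonical pathway, was higher (2.01 ± 0.12, adjusted p = 0.00492, limma), and Tnfaip3 (A20), an inhibitor of the canonical pathway, was lower (-1.03 ± 0.28, adjusted p = 0.0376, limma). The other called genes were the subunit genes Nfkb1, which was higher (1.92), and Rela, which was lower (-0.91). The subunit genes Relb (0.26) and Nfkb2 (-0.12) were not called. Whether the genes of these 2 lists act on the ligands was not tested.

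**Figure D4:**
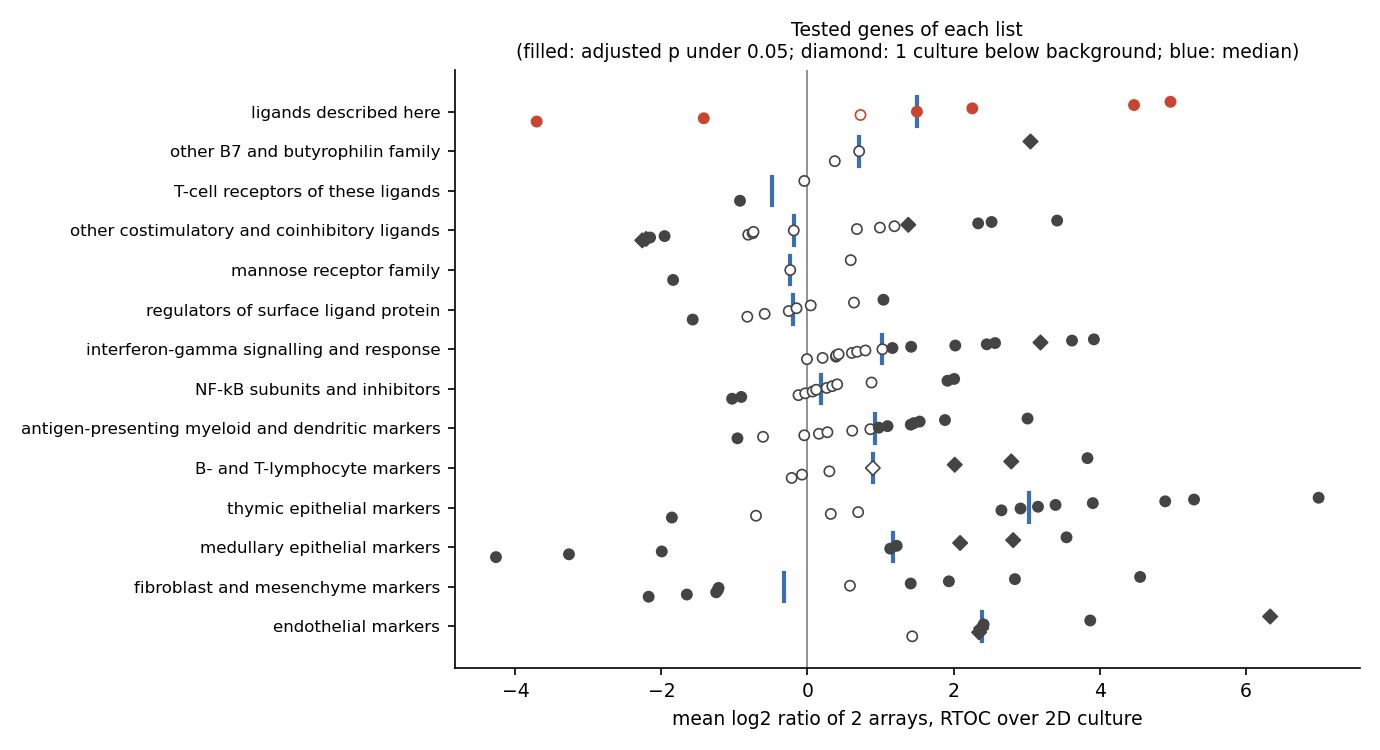
Mean log2 ratio (RTOC over 2D culture) for the tested genes of each list, with the probe of highest mean intensity per gene; filled symbols have an adjusted p from limma under 0.05, diamonds are genes for which both arrays put 1 culture below detection, and blue bars are medians. The ligands described here (red) run from -3.71 for Cd80 to 4.97 for Cd83, and the thymic epithelial markers have a median of 3.04.

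Several of these ligands are also made by dendritic cells and macrophages, which the unsorted cultures could hold. In bulk RNA, fewer cells of a type and less RNA per cell cannot be told apart. Of 18 markers of antigen-presenting myeloid and dendritic cells, 14 were tested, and 7 were higher and 1 lower in RTOC (median log2 ratio 0.92). The summed intensity of all 18 was 78812 (2D) and 192442 (RTOC) at E14.5, and 66026 and 240321 at E15.5. Levels of different probes are not comparable, and the sum weighs each gene by the brightness of its probe. Lyz2, a lysozyme gene of macrophages, and Adgre1 made up most of this sum in every channel, so it says little about the other 16. Adgre1, a macrophage marker, had the highest log2 ratio (3.01 ± 0.30, SD, n = 2 arrays, adjusted p = 0.00226, limma). The others called higher were Ptprc (1.88), Tyrobp (1.54), Lyz2 (1.46), Fcer1g (1.41), Csf1r (1.10) and Fcgr1 (0.98), by the brightest probe of each. All of them were still called with normexp and loess. Zbtb46, a transcription factor of conventional dendritic cells, was lower in RTOC (-0.96 ± 0.14, adjusted p = 0.0412, limma, a call that is lost with normexp and loess, where the adjusted p was 0.216; the median over its tested probes was -0.53), and Clec9a, Siglech and Cd209a, defining markers of dendritic cell types, were not well above background in any channel. Xcr1, a chemokine receptor of cross-presenting dendritic cells, was well above background in all 4, with 441 (2D) and 633 (RTOC) at E14.5 and 612 and 623 at E15.5, and was not called (adjusted p = 0.483, limma). Itgax (CD11c) had log2 ratios of 0.32 and -0.41 and was not called (adjusted p = 0.922, limma). The part of these cells in the values of Cd83, Cd86, Cd274 and Ly75 was not tested.

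Of 12 thymic epithelial markers, all tested, 8 were higher and 1 lower in RTOC (median 3.04). Ccl25, a chemokine of thymic epithelium, was the highest by its brightest probe (128-fold, adjusted p = 0.00155, limma), but the median log2 ratio over its 3 probes was 4.34, below that of Prss16 (4.97 over 2 probes) and Enpep (4.90, 1 probe). Krt14 was the only one called lower (-1.86 ± 0.046, adjusted p = 0.00602, limma). The 3 not called were Epcam (-0.70), Krt8 (0.32) and Krt18 (0.69), so the median of 3.04 does not hold for every epithelial gene of the list. Of 8 tested medullary epithelial markers, 5 were higher and 3 lower, from Spink5 (3.55) to Cldn4 (-4.27), a claudin known from medullary epithelium. Of the 5 higher, Aire and Fezf2 were below detection in 2D culture, and these and Ivl, 3 of the 8, were not called with normexp and loess. Ivl was among the 3 lower, and its RTOC signal was well above background on 1 array only. Of 10 fibroblast and mesenchyme markers, 4 were higher and 5 lower, from Lum (4.55) to Col1a1 (-2.18), and 3 of these 9 were not called with normexp and loess. Of 6 tested endothelial markers, 5 were higher and none lower, with Emcn at 3.87 and Esam at 2.41. The other 3, Cdh5, Pecam1 and Tie1, were below detection in 2D culture, and 2 of them, Pecam1 and Tie1, were not called with normexp and loess. Of 12 B- and T-lymphocyte markers, 7 were tested and 3 were called, all higher in RTOC. Cd3g was at 3.83 (its 2D signal was above background on 1 array). Cd79b and Cd3d were below detection in 2D culture, and Cd79b was at least 1.54-fold higher in RTOC. Cd3d was 1.31-fold higher as measured on the normexp, loess and Aquantile scale, and, as for Cd80 probe A_52_P244005, no bound is given. None of the 3 was called with normexp and loess. Cd79a, Ms4a1 and Cd8a were not well above background in any channel. The part of these cell types in the values of the ligands was not tested.

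The size of the ligands' changes depended on the processing more than their direction did. The 7 tested probes detected in all channels kept their sign under each of the 4 ways of forming the ratio that are plotted, as did the other 3, whose sign the filter fixed on at least 1 array. The ratios were smallest with normexp and loess, most of all at dim probes. Cd80 probe A_51_P418295 went from -3.71 to -0.92, and Ly75 probe A_52_P546030 from 3.30 to 1.02, whereas Cd83 went from 4.97 to 4.37.

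**Figure D5:**
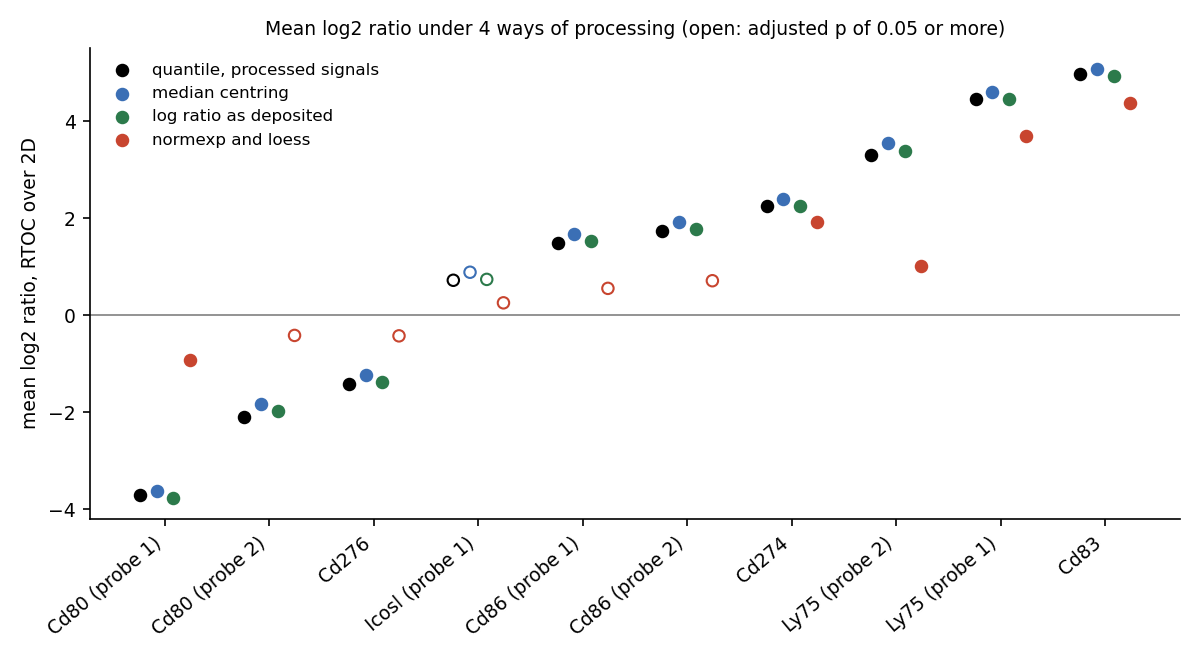
Mean log2 ratio (RTOC over 2D culture) for the 10 tested ligand probes under 4 ways of processing, in the colours of the legend; open symbols have an adjusted p from limma of 0.05 or more. With normexp and loess (red) the dim probes of Cd80, Cd86, Cd276 and Ly75 move toward 0, and 5 of the 10 are called, against 9 of 10 with quantile normalized processed signals (black).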

How the data were processed

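The authors ran Agilent Feature Extraction (version 11.5.1.1 in the submitters' processing notes) on 2 two-colour arrays and, per the paper's methods, quantile normalized all probes. The deposited scanner files hold a processed signal (an intensity from which background was subtracted, with the dyes normalized), the raw mean and background intensity, and a log10 ratio of Cy5 over Cy3. The deposited series table holds the log10 ratio of the same processed signals. Here control spots and outlier spots (5 and 1) were dropped, quantile normalization was run over the 4 channels, log2 ratios of the deposited intensities were taken, and spots of a probe were averaged. Tested probes had on each array at least 1 channel well above background, as were 53.1% (2D) and 56.3% (RTOC) of probes at E14.5, and 53.5% and 60.9% at E15.5. limma 3.58.1 in R 4.3.3 tested the ratio against 0 (lmFit and eBayes, two-sided, 1 residual degree of freedom), with Benjamini-Hochberg adjustment over all 23681 tested probes and a threshold of 0.05. The steps were tested on simulated data. An exact sign-flip test on 2 arrays cannot go below 0.5.

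Probes were named through their accession (22951), symbol (6659) or an older symbol (3109) in the RefSeq table of GRCm38.p6, and 8455 kept the name in the files. The array files name no genome build. The ligands and gene lists were chosen with earlier results of these data known. All ligands are named, and of each other list the highest and the lowest called gene, preferring genes detected in all channels. Defining markers not above background are named too. The lowest called gene of the interferon-gamma list is not reported here. Genes outside this rule, chosen after their values were seen, are Foxn1, Vsir, Cd40, Nectin2, Mrc1, Mrc2, Cmtm6, Itgax, Xcr1, Lyz2, Prss16, Enpep and the genes below detection in 1 culture or not called with normexp and loess. Also outside it are Rgmb, Nfkb1, Rela, Relb, Nfkb2, Ptprc, Tyrobp, Fcer1g, Csf1r, Fcgr1, Epcam, Krt8 and Krt18. Alternatives were normexp (offset 50) with loess, median centring with no quantile step, the deposited log ratio, and no filter or a stricter one. Further alternatives were outlier spots kept, no replicate block, each array left out, trend and robust eBayes, and the methods' t-test. Aquantile was also added after loess, which leaves the log ratios as they are.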

Additional observations from a re-analysis of the deposited data

How the results depend on the processing

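No tested ligand probe changed sign with normexp and loess, median centring, the deposited log ratio, outlier spots kept or either array left out. The filter on dim signals fixed the sign of 3 of these probes on at least 1 array. The other alternatives reuse the log2 ratios of the main fit or of loess, so no sign could change there. Of the 9 called ligand probes, 5 were called with normexp and loess and 7 without the replicate block. With no filter on dim probes 0 were called (9 at an unadjusted p under 0.05, limma). By the methods' t-test after Benjamini-Hochberg 0 were called (4 unadjusted). Adding Aquantile leaves the log ratios after loess unchanged, so it repeats the loess result and is no separate check. Without the block, Cd276 and Cd80 probe A_52_P244005 (adjusted p = 0.0874, limma) lost their calls. The adjusted p of Cd83 ran from 2.01e-05 to 0.303 and that of Cd276 from 0.00809 to 0.337 over their alternatives. Of all probes, 6853 were called, against 3709 with normexp and loess, 4047 without the block, 0 with no filter (10661 unadjusted) and 4 by the methods' t-test (3539 unadjusted). Among the genes of the other lists outside the marker lists, 25 of 60 tested were called, 19 with normexp and loess. The cause of these differences was not tested. Leaving out either array gives no test. At least 2-fold changed were 9 ligand probes over both arrays and with either array alone, and 4775 probes in all against 6441 to 8392 with 1 array left out. Median centring in place of the quantile step moved the median log2 ratio by 0.072 (E14.5) and 0.24 (E15.5) and turned the sign of no list's median. Limits are the 2 arrays, the dyes that were not swapped and the dim signals of Cd80, Cd86, Icosl and Cd276.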
